A study of Mus musculus with 8 samples.

Results

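The genes described here are Unc93b1, the Toll-like receptor genes Tlr2, Tlr3 and Tlr4, the co-receptor gene Cd14, and the signalling genes Myd88, Ticam1, Irak1, Irak4 and Traf6, in mouse embryonic fibroblasts. They were chosen by symbol, and all 10 had a row among the 12211 genes of the deposited count table. The choice was made with the difference between genotypes already known, above all the low Unc93b1 and the high Cd14 in PUS10KO. The differences of these 10 genes between genotypes are therefore given as a description, without p-values.

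Toll-like receptors are membrane proteins that bind microbial products or nucleic acids through leucine-rich repeats. They signal through a cytoplasmic TIR domain and the adaptors MyD88 or TRIF to the transcription factors NF-kB and IRF. Receptors of nucleic acids work in endosomes and need UNC93B1, a multipass membrane protein that escorts them there from the endoplasmic reticulum, whereas TLR2 and TLR4 work at the cell surface. Fibroblasts are not professional immune cells, but they respond to bacterial lipids and to double-stranded RNA.

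The study held 8 RNA sequencing libraries, 4 labelled control (genotype WT) and 4 labelled PUS10KO (genotype PUS10 KO), numbered 1 to 4 in each genotype. Both groups were embryonic fibroblasts grown in the same medium with serum and antibiotics, with no other treatment named. PUS10 is a pseudouridine synthase, and the submitters place the series under tRNA fragmentation, retrotransposons and inflammation. The strain, the embryonic age, the way the knockout was made and any separate embryos, lines or clones behind the libraries were not given in the sources used here. A p-value therefore covers the spread among the 8 libraries, which may be technical. Values of single libraries are listed in order of library number, 1 to 4.

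Total counts ran from 17561114 to 24563499 per library. Pus10 itself went from 46.1 ± 6.46 to 13.8 ± 1.60 CPM (mean ± SD, n = 4 each; log2 fold change -1.74, edgeR adjusted p = 0.000189), where CPM scales the counts of a gene to its library total after TMM scaling. The Y-linked genes Uty, Kdm5d and Eif2s3y each had 0 to 2 counts over all control libraries and at least 722 in each PUS10KO library, so sex chromosome content and genotype cannot be told apart. Of 11909 genes tested with edgeR, 703 (5.90%) rose and 847 (7.11%) fell in PUS10KO at an adjusted p under 0.05. A replicate block, which compares libraries of the same number, gave 2273 (19.1%) and 2368 (19.9%). All 11 fibroblast markers looked up had a row, and Col1a2, Pdgfrb, Vim, Thy1 and Fap fell while none rose in the fit by genotype alone. The replicate block gave 6 that fell and 1 that rose, Pdgfra. Thy1 kept its call in all 8 fits that left out 1 library, Fap lost it without PUS10KO 2 or PUS10KO 3, Col1a2 kept it only without control 2 or PUS10KO 4, Vim only without control 1 or control 4, and Pdgfrb only without PUS10KO 1. Their summed level was 15210 to 18060 CPM in control and 9828 to 13980 CPM in PUS10KO, and Thy1 had 2 counts over the 4 PUS10KO libraries against 21.8 ± 0.92 CPM in control.

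Unc93b1 was expressed in every control library and nearly absent from every PUS10KO library. The gene (ENSMUSG00000036908.17, chromosome 19, 3935186 to 3949340 on the plus strand of GRCm38) was at 13.6, 9.14, 18.7 and 22.2 CPM in the controls. It had 0.0551, 0.119, 0.127 and 0.108 CPM in the PUS10KO libraries. The lowest control library thus lay far above the highest PUS10KO library, and among the controls the libraries numbered 3 and 4 were the higher ones.

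In counts, the PUS10KO libraries held 1, 3, 3 and 2 reads of Unc93b1, 9 in all, and the control libraries 1273. Scaled to library size this is 153-fold less (exact 95% counting interval 80.2 to 335, counting error only). The fitted log2 fold change was -7.17 (SE 0.41). No other annotated gene overlaps Unc93b1, so its reads are not shared with an antisense or host gene. In these bulk libraries, fewer cells with a transcript and less transcript per cell cannot be told apart.

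**Figure D1:**
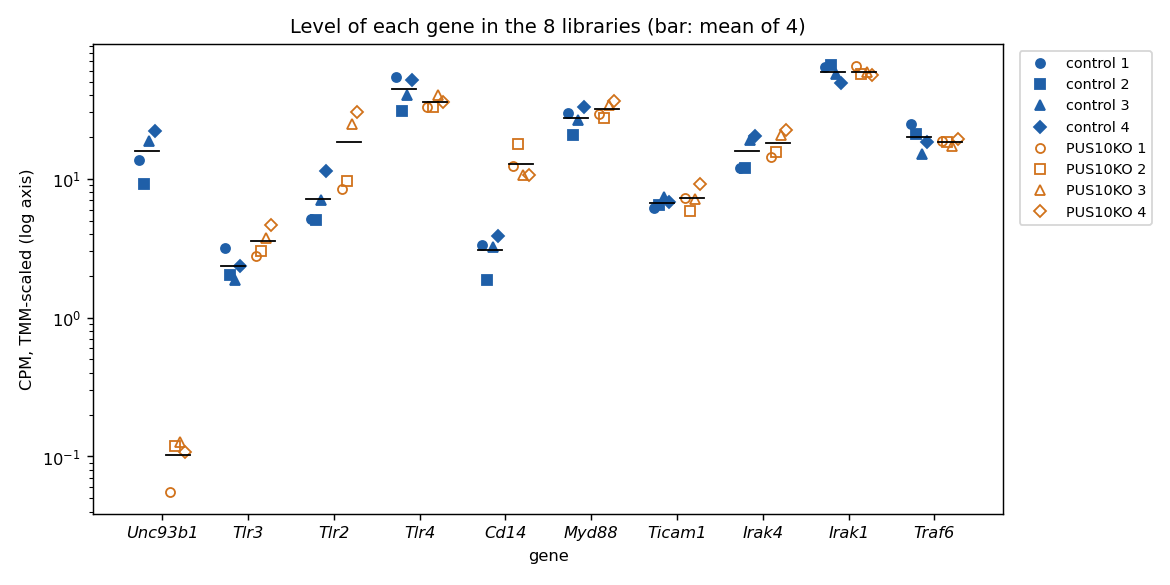
TMM-scaled CPM on a log axis for each of the 10 genes, with control libraries filled and blue, PUS10KO libraries open and orange, a marker shape for each library number and a bar for the mean of 4 libraries. Unc93b1 lies between 9.14 and 22.2 CPM in control and at or below 0.127 CPM in PUS10KO, Cd14 lies higher in all PUS10KO libraries, and the genotypes overlap for the other 8 genes.

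Of the 10 genes, Unc93b1 fell, Cd14 rose and 8 did not pass the edgeR test, where 13.0% of all genes tested passed (5.90% rose, 7.11% fell). Since the genes were chosen with this contrast known, nothing is read from that count. CPM values did not overlap between genotypes for the same 2 genes, against 20.3% of all genes (9.70% higher and 10.6% lower in PUS10KO). Within every number, Cd14, Tlr2 and Irak4 were higher and Unc93b1 lower in PUS10KO, as 28.4% and 26.9% of all genes were. The median log2 fold change of the 10 was 0.16, beside 0.009 for all genes tested. Tlr2 also rose with the replicate block, where 39.0% of all genes passed (19.1% rose, 19.9% fell).

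Tlr3 is the endosomal receptor for double-stranded RNA and the client of UNC93B1 among the 3 receptor genes. Its transcript was the least abundant of the 10 in control, and its mean was not lower in PUS10KO. It had 3.16, 2.03, 1.86 and 2.35 CPM in the controls, against 2.75, 3.02, 3.72 and 4.65 CPM in the PUS10KO libraries. The fitted difference was a log2 fold change of 0.59 (SE 0.28). The genotypes overlapped because control 1 lay above PUS10KO 1 and 2, and the PUS10KO value was the higher one in 3 of the 4 numbers. A predicted antisense gene overlaps Tlr3. The library kit keeps the strand of the RNA, but whether the counting used it was not given in the sources used here.

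Tlr2 is the surface receptor for bacterial lipoproteins, which it binds paired with TLR1 or TLR6. It had 5.11, 5.04, 7.01 and 11.4 CPM in the controls. It had 8.37, 9.59, 24.95 and 30.1 CPM in the PUS10KO libraries. Within each number the PUS10KO library was higher, by 0.70, 0.92, 1.82 and 1.39 on the log2 scale for numbers 1 to 4. Control 4 nevertheless exceeded PUS10KO 1 and 2, so the genotypes overlapped, and the libraries numbered 3 and 4 were the higher ones in both genotypes. The log2 fold change was 1.35 (SE 0.47), and 1.24 with the replicate block.

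Upstream sequences are shown for Tlr2 and Myd88 as examples, the first with a match to a motif of NF-kB and the second of interferon-activated factors. The RefSeq table of sequences before gene starts (GRCm38.p6) matched 7 of the 10 genes, and Unc93b1, Cd14 and Tlr4 had no entry. The 250 bases before each start were searched on both strands for GGG, any 5 bases and CC, the NF-kB type, and for GAAA, any 2 bases and GAAA, the interferon-stimulated response element type. The printed stretch is the part of that window outside annotated exons, 5′ to 3′ on the strand of the gene, with the match in capitals. Tlr2 is on the minus strand at chr3:83841768-83841858, before the GENCODE gene, which begins upstream of the RefSeq start. Myd88 is on the minus strand at chr9:119340042-119340268, between exons within the GENCODE span of the gene.
Tlr2: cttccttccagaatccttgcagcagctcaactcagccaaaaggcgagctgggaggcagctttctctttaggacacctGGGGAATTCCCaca
Myd88: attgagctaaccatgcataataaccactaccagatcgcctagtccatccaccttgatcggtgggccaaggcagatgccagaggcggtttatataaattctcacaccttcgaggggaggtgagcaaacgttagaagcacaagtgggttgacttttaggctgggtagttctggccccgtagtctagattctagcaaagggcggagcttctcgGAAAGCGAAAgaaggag
The capitals in Tlr2 are 2 overlapping NF-kB type matches that begin 173 bases before the RefSeq start. Of 32851 such windows in the table, 45.8% held at least 1 match. The capitals in Myd88 are 1 interferon-response type match that begins 40 bases before the RefSeq start, and 2.98% of windows held one. Among the other 5 genes with an entry, Tlr3, Ticam1, Irak1, Irak4 and Traf6, each held 1 or 2 NF-kB type matches and none the interferon-response type. A match describes the letters only.

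Tlr4, the receptor that recognises bacterial lipopolysaccharide with its partner MD-2, was the most abundant receptor transcript of the 3 in both genotypes by mean CPM per kb of exon, although it overlapped Tlr2 in PUS10KO. It had 54.1, 30.6, 39.9 and 51.7 CPM in the controls, against 33.1, 33.0, 40.1 and 35.5 CPM in the PUS10KO libraries. The PUS10KO values all lay within the span of the control values (log2 fold change -0.32, SE 0.19).

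Cd14 encodes the surface and secreted protein that hands lipopolysaccharide to TLR4 and lipoproteins to TLR2. The gene lies on chromosome 18, 36725067 to 36726798, minus strand, GRCm38. It had 3.36, 1.86, 3.25 and 3.88 CPM in the controls, against 12.3, 17.7, 10.7 and 10.6 CPM in the PUS10KO libraries. Every PUS10KO library lay above every control library, and PUS10KO 2 was the highest while control 2 was the lowest. The means were 3.09 ± 0.86 and 12.8 ± 3.37 CPM (SD, n = 4 each), and the log2 fold change was 2.05 (SE 0.28).

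Cd14 is also a common marker of monocytes and macrophages, so the markers of such cells are given beside it. Of 21 myeloid markers, 5 had a row (Csf1r, Cd68, Lyz2, Cx3cr1 and Lcp1), and the other 16, among them Ptprc and Adgre1, were not analysed here. The 5 together had 7.47 to 24.97 CPM in control libraries and 4.38 to 10.96 CPM in PUS10KO libraries. Of the 4 that were tested none passed, and with the replicate block Lyz2 fell. The 2 ranges overlapped, and the highest sum, that of control 1, held 15.57 CPM of Lcp1. Of 6 endothelial markers Kdr and Tek had a row, summing to 2.52 to 4.92 CPM in control and 1.19 to 3.12 CPM in PUS10KO, and Kdr fell with the replicate block. Of 8 markers of B cells and plasmacytoid dendritic cells, Bst2 alone had a row, with a mean of 29.4 CPM in control and 87.3 CPM in PUS10KO (edgeR adjusted p = 0.215). It had 75.2, 12.4, 14.1 and 16.1 CPM in the controls against 196.6, 57.0, 35.4 and 60.1 CPM in the PUS10KO libraries. The genotypes overlapped, with number 1 the highest library of each, and Bst2 rose with the replicate block. The part of these cell types in the level of Cd14 was not tested.

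The adaptor genes differed little between genotypes. Myd88, the adaptor of all Toll-like receptors except TLR3 and of the interleukin 1 receptor family, had 29.8, 20.6, 26.5 and 32.8 CPM in the controls. The PUS10KO libraries had 29.3, 27.2, 33.7 and 36.4 CPM (log2 fold change 0.21, SE 0.17). The genotypes overlapped, with control 2 the lowest library and PUS10KO 4 the highest. The genes Acaa1a and Slc22a14 overlap the annotated Myd88 gene, so its counts may include reads of theirs.

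Ticam1 encodes TRIF, the adaptor of TLR3 and of TLR4 in endosomes. It had 6.13, 6.51, 7.37 and 6.75 CPM in the controls, against 7.22, 5.81, 7.09 and 9.09 CPM in the PUS10KO libraries. PUS10KO 2 was the lowest and PUS10KO 4 the highest of the 8 libraries (log2 fold change 0.12, SE 0.19).

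The kinases and the ubiquitin ligase that act after MyD88 also overlapped between genotypes. Irak4, the kinase that MyD88 recruits first, had 12.02, 11.98, 18.9 and 20.4 CPM in the controls against 14.3, 15.5, 20.7 and 22.3 CPM in the PUS10KO libraries. Libraries numbered 3 and 4 were higher than those numbered 1 and 2 in both genotypes. Within each number PUS10KO was slightly the higher, by 0.13 to 0.37 on the log2 scale, and the fitted log2 fold change was 0.20 (SE 0.24). The gene Twf1 overlaps Irak4 on the opposite strand.

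Irak1, the kinase that Irak4 activates, had 63.5, 65.5, 57.2 and 48.7 CPM in the controls, against 64.6, 56.4, 58.9 and 56.1 CPM in the PUS10KO libraries. The means, 58.7 ± 7.59 and 59.0 ± 3.95 CPM (SD, n = 4 each), differed by less than the spread of either genotype (log2 fold change 0.007, SE 0.13). Irak1 lies on the X chromosome, whose 395 tested genes had a median log2 fold change of 0.20, and its level cannot be told apart from the sex chromosome content given above.

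Traf6, the ubiquitin ligase through which the IRAK kinases reach the kinase TAK1, had 24.7, 21.1, 15.1 and 18.5 CPM in the controls. The PUS10KO libraries had 18.8, 18.3, 17.2 and 19.3 CPM, all within the span of the controls (log2 fold change -0.11, SE 0.17).

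**Figure D2:**
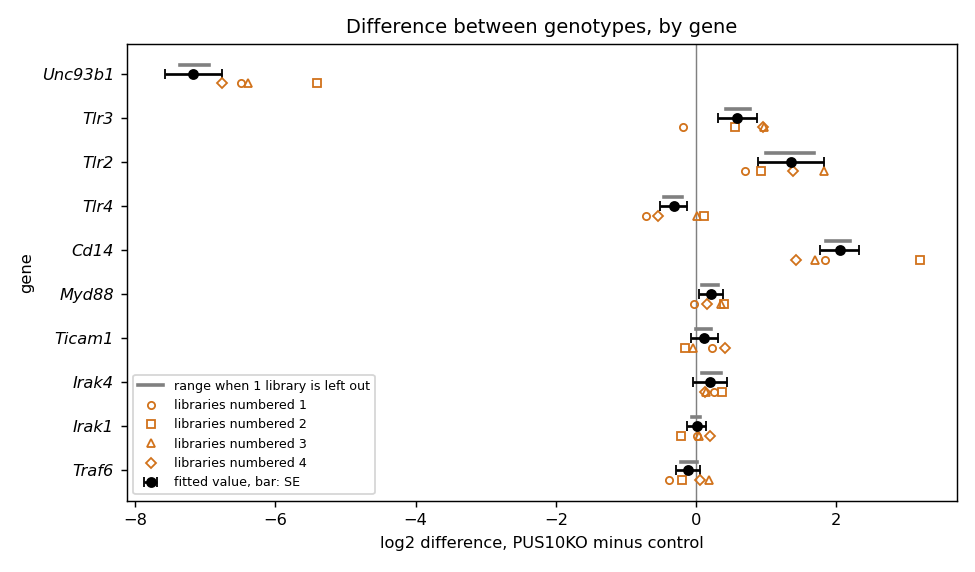
Log2 difference between PUS10KO and control for each gene, as the fitted value with its SE (black), the range of fitted values when 1 library is left out (grey) and the difference between libraries of the same number, from log2 CPM with a prior count of 2 (orange). Unc93b1 lies at -7.17 and Cd14 at 2.05, with all 4 numbers on the same side of 0, as have Tlr2 and Irak4, while the other 6 genes have numbers on both sides.

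Chromosomes differed in their median log2 fold change, from -0.60 on chromosome 12 to 0.20 on the X chromosome among the autosomes and X. The 10 genes lie on 10 different chromosomes, whose medians ran from -0.16 on chromosome 18 (Cd14) to 0.20 on X (Irak1). Relative to their own chromosome, the log2 fold change was -7.06 for Unc93b1, 2.21 for Cd14 and 1.31 for Tlr2. For the other 7 genes it lay between -0.34 for Tlr4 and 0.56 for Tlr3.

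Levels were ordered per kilobase of exon (GENCODE M21). In control, Irak1 (12.5 ± 1.61 CPM per kb), Myd88 (10.6 ± 2.02), Tlr4 (7.93 ± 1.97) and Unc93b1 (5.25 ± 1.89 CPM per kb, SD, n = 4 each) led. Near the end came Cd14 with 1.78 ± 0.50 CPM per kb, and last Tlr3 with 0.45 ± 0.11 CPM per kb. Each gene overlapped the next in this order over the 4 control libraries, except that all Cd14 values lay above all Tlr3 values. In PUS10KO, Cd14 came next after Irak1 and Myd88 with 7.41 ± 1.94 CPM per kb, overlapping Tlr4 (6.37 ± 0.60 CPM per kb). Unc93b1 came last there with 0.0338 ± 0.011 CPM per kb, and all its values lay below all those of Tlr3 (0.68 ± 0.16 CPM per kb).

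The genes beside Unc93b1 on chromosome 19 were examined next, 5 tested genes on each side. Aldh3b1, an aldehyde dehydrogenase gene and the nearest tested gene on the lower side (its start 21.7 kb away), fell from 6.62 ± 2.82 to 1.37 ± 0.66 CPM (SD, n = 4 each, log2 fold change -2.28, SE 0.44, edgeR adjusted p = 0.0102). It had 3.85, 4.60, 8.50 and 9.53 CPM in the controls against 0.826, 0.796, 1.73 and 2.11 CPM in the PUS10KO libraries, with no overlap. Acy3, the nearest tested gene on the higher side, had a log2 fold change of 0.64 (SE 0.44, edgeR adjusted p = 0.402).

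Altogether 2 of the 10 neighbours fell and none rose, where 13.0% of all genes passed. In either direction, 3 passed by DESeq2, where 1146 of all genes rose and 1287 fell. By limma voom 2 passed, where 699 of all genes rose and 814 fell. Before adjustment of p 3 passed, but the share of all genes at that threshold was not computed, so nothing is read from it. In the fit with the replicate block, where 39.0% of all genes passed, 3 fell and Gstp1 rose (log2 fold change 0.51 and edgeR adjusted p = 0.0519 without the block). The other that fell was Chka, a choline kinase gene named after its values were seen (log2 fold change -0.71, edgeR adjusted p = 0.0475). Leaving out 1 library at a time kept Chka past the threshold only without PUS10KO 2 (adjusted p up to 0.128 in the others). The neighbours ran from -2.28 to 0.64 in log2 fold change, with a median of -0.17, so none came near the -7.17 of Unc93b1.

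**Figure D3:**
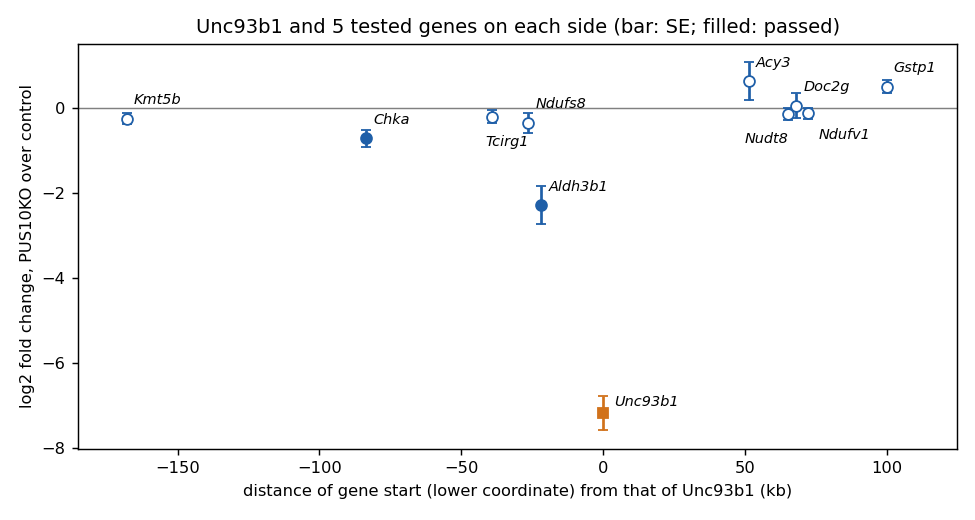
Log2 fold change (PUS10KO over control, bar SE) of Unc93b1 (square) and of 5 tested genes on each side (circles, filled where the gene passed the edgeR test) against the distance between gene starts in kb. Aldh3b1 at -21.7 kb lies at -2.28, and the other neighbours lie between -0.71 and 0.64.

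The genes whose log2 CPM over the 8 libraries was most like that of Unc93b1, among 10764 genes, were Ssh3 (Pearson r = 0.997), Tbxa2r (0.997), Slc16a3 (0.996), Barx1 (0.996) and Lefty1 (0.996). All 5 fell in PUS10KO, and 149 genes reached an r of 0.95. The 8 points form 2 clusters, the genotypes, so r mainly describes the gap between them. Ssh3, a phosphatase gene of actin regulation, lies on the same chromosome, 326 kb from Unc93b1 with 17 tested genes between. It had 17.5, 11.6, 22.4 and 23.0 CPM in the controls against 0.551, 0.438, 0.549 and 0.433 CPM in the PUS10KO libraries. Its controls stood in the same order as those of Unc93b1, with number 2 lowest and number 4 highest. Tbxa2r on chromosome 10 and Slc16a3 on chromosome 11 had that order too, while Barx1 and Lefty1 had number 1 lowest.

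Most like Cd14 were Ptgs1 (r = 0.996), Bri3bp (0.992), Mrpl36 (0.981), Tbkbp1 (0.977) and Zfp932 (0.976), and 46 genes reached 0.95. All but Mrpl36 rose, though Zfp932 lost its call without control 3, PUS10KO 2 or PUS10KO 3 (edgeR adjusted p up to 0.0557). Ptgs1, the gene of cyclooxygenase 1, had 20.2, 10.9, 17.8 and 25.1 CPM in the controls against 69.9, 86.4, 59.0 and 56.2 CPM in the PUS10KO libraries. As with Cd14, library 2 was the lowest control and the highest PUS10KO library. The libraries share number and genotype, so these r values describe 8 points only.

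The rest of the pathway was read from 6 lists, and their counts are set against the 13.0% of all genes that passed (39.0% with the replicate block). These lists were also chosen with earlier results of these data known, so their shares and adjusted p are given as a description. Of the 7 other receptors and co-receptors that could be tested, 1 rose, none fell and 6 did not pass, or 14.3% (median log2 fold change 0.07). The replicate block gave 2 that rose and 1 that fell. The other 9 of the list, among them Tlr7 and Tlr9, had no row in the count table and were not analysed here. Lbp, the secreted protein that delivers lipopolysaccharide to CD14, had 3.75, 0.876, 1.13 and 3.35 CPM in the controls against 13.5, 5.37, 18.8 and 36.2 CPM in the PUS10KO libraries. All PUS10KO libraries were higher (log2 fold change 3.01, SE 0.66, edgeR adjusted p = 0.0178), and without control 3 the adjusted p was 0.0523.

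The partners of the receptors described above were named after their values were seen. Tlr1 had a log2 fold change of 1.10 (edgeR adjusted p = 0.158, or 0.0121 with the replicate block) and Tlr6 0.26 (0.746, or 0.335 with the block). Ly96, which encodes MD-2, went from 8.49 ± 2.11 to 5.28 ± 0.10 CPM (SD, n = 4 each, log2 fold change -0.69, edgeR adjusted p = 0.0598, or 0.0128 with the block). Its 4 PUS10KO libraries lay below all 4 controls, while Cd14 and Lbp lay above.

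Most genes of receptor folding, trafficking and processing did not pass. Of 21 tested, none rose, 3 fell and 18 did not pass, or 14.3% (median -0.04) (1 and 5 with the replicate block). Ctsk, a lysosomal cysteine protease, had 110.2, 44.9, 64.9 and 82.4 CPM in the controls against 0.220, 0.279, 0.380 and 0.704 CPM in the PUS10KO libraries. This near absence (log2 fold change -7.58, SE 0.43, edgeR adjusted p = 2.33e-05) is of the same order as that of Unc93b1. Lgmn, an asparaginyl endopeptidase that can cleave endosomal receptors, went from 106.5 ± 32.3 to 19.1 ± 4.30 CPM (SD, n = 4 each, log2 fold change -2.48, adjusted p = 0.000552). Lgmn lies on chromosome 12, where 179 of 405 tested genes passed (median log2 fold change -0.60). Ctsk lies on chromosome 3, where 68 of 590 passed (median 0.04).

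Ap3d1, a subunit of the AP-3 sorting complex, had -0.69 (edgeR adjusted p = 0.0368). It lies on chromosome 10, as do Tab2 and Tnfaip3 below, where 126 of 575 tested genes passed (median log2 fold change -0.25). With 1 library left out at a time, Ap3d1 passed only without PUS10KO 4 or control 2, and its adjusted p reached 0.0996. Among members named after their values were seen, the receptor chaperone genes Hsp90b1 and Cnpy3 had log2 fold changes of -0.29 and 0.12 (edgeR adjusted p = 0.368 and 0.513). With the replicate block Hsp90b1 fell (log2 fold change -0.27, edgeR adjusted p = 0.0413) and Cnpy3 did not pass (adjusted p = 0.256).

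Of 22 other adaptors and kinases 2 rose, 1 fell and 19 did not pass, or 13.6%, a share near that of all genes (median 0.08). The blocked fit called 5 that rose and 2 that fell. Tab2, which links TRAF6 to TAK1, fell from 79.5 ± 9.22 to 46.0 ± 2.77 CPM (SD, n = 4 each, log2 fold change -0.79, edgeR adjusted p = 0.0031). Sarm1, a TIR domain protein that degrades NAD, went from 0.39 ± 0.12 to 1.51 ± 0.22 CPM (log2 fold change 1.93, edgeR adjusted p = 0.00517). Irf5, a transcription factor that MyD88 signalling activates, went from 8.70 ± 1.22 to 15.8 ± 4.07 CPM (edgeR adjusted p = 0.03). Irf5 lost its call without control 1, control 2, control 3, PUS10KO 1 or PUS10KO 2, where the adjusted p reached 0.0824.

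Of 19 negative regulators 3 rose, 1 fell and 15 did not pass, or 21.1% (median 0.25) (9 and 4 with the replicate block). Nfkbie, an inhibitor of NF-kB, went from 3.65 ± 0.98 to 17.4 ± 3.58 CPM (SD, n = 4 each, log2 fold change 2.25, edgeR adjusted p = 0.000729). Tnip1, which binds the deubiquitinase A20, had 1.03 (adjusted p = 0.00551), and Socs1, a suppressor of cytokine signalling, 1.29 (adjusted p = 0.00846). Tnfaip3, the gene of A20 itself, fell (log2 fold change -1.06, edgeR adjusted p = 0.0254). Tnfaip3 lost its call without control 1, control 2, PUS10KO 1, PUS10KO 2 or PUS10KO 3, where the adjusted p reached 0.0746.

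The interleukin 1 family list held receptor chains, which signal through MyD88, and also the cytokines Il18 and Il33 and the receptor antagonist Il1rn. Of its 8 tested genes 4 rose, all of them receptor chains, none fell and 4 did not pass, or 50.0% (median 1.17). In the blocked fit 6 rose, the same 4 with Il1rn and Il33 (log2 fold change 1.42 and 1.16, edgeR adjusted p = 8.55e-05 and 0.00439). Il1rl2, the interleukin 36 receptor, went from 0.24 ± 0.18 to 11.9 ± 3.35 CPM (SD, n = 4 each, log2 fold change 5.59, SE 0.58, edgeR adjusted p = 0.000577). Il1rl1, the interleukin 33 receptor, had 2.19 (adjusted p = 0.00345), Il18rap, a chain of the interleukin 18 receptor, 1.53 (adjusted p = 0.0107) and Il1r1, the interleukin 1 receptor, 0.89 (adjusted p = 0.0435). Il1r1 kept its call in the fits without control 1 or control 4 and lost it in the other 6 (adjusted p up to 0.104).

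These 4 genes lie within 1 stretch of chromosome 1, 40225080 to 40551705 (GRCm38), a span of 327 kb, and they were the 4 tested genes within it. The 681 tested genes of chromosome 1 had a median log2 fold change of -0.12. The 4 that did not pass in the fit by genotype alone, the receptor chain Il1rap, Il1rn, Il18 and Il33, lie on other chromosomes.

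Of 13 tested genes that Toll-like receptor signals are known to induce, 4 rose, 1 fell and 8 did not pass, or 38.5% (median 1.12). Blocked by number, 7 rose and 2 fell. The adhesion molecule Icam1 went from 0.38 ± 0.29 to 43.6 ± 16.0 CPM, and the chemokines Cxcl10 and Cxcl1 had log2 fold changes of 5.38 and 2.64 (edgeR adjusted p = 9.06e-05, 0.000413 and 0.00205). Ch25h, the cholesterol 25-hydroxylase gene, fell from 18.8 ± 2.13 to 6.02 ± 2.02 CPM (SD, n = 4 each, log2 fold change -1.65, edgeR adjusted p = 0.00458).

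**Figure D4:**
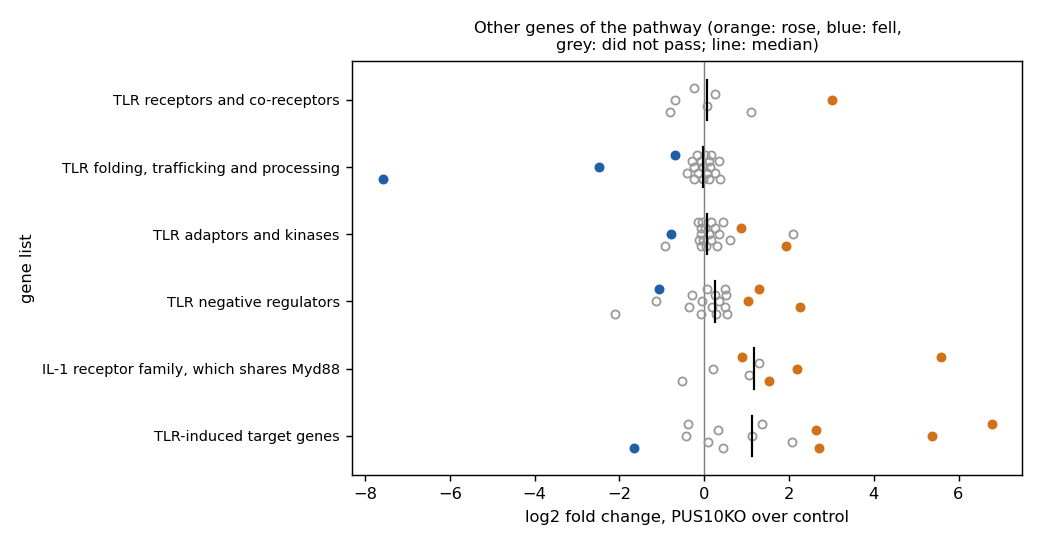
Log2 fold change (PUS10KO over control) of every tested gene in the 6 lists of the pathway, with 1 circle per gene, orange where it rose, blue where it fell, grey where it did not pass, and a line at the median of each list. The medians of the receptor, trafficking and adaptor lists lie between -0.04 and 0.08, and those of the interleukin 1 family and target lists at 1.17 and 1.12.

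The authors' deposited normalized table, which is on a log2-like scale and in which differences between numbers had been removed, gave smaller differences. Unc93b1 differed by -2.63 there, Cd14 by 1.24, Tlr2 by 0.87 and Tlr3 by 0.27. Its values for Unc93b1 in PUS10KO were 5.85 to 6.34, beside a lowest value of 5.13 in the whole table.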

How the data were processed

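For each of 8 libraries the deposited main table gives raw read counts per gene as whole numbers. STAR 2.7.8a, DESeq2 and mm10 appear in the submitters' processing notes, while the read counter, its strand setting and its annotation were not given in the sources used here. The authors also deposited normalized values, from 5.13 to 18.12 on what appears to be a log2 scale. There, PUS10KO plus control summed to the same value in every number for all 12211 genes (tolerance 1e-06).

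Libraries were grouped by title. Counts were filtered with filterByExpr and scaled by TMM, and the genotypes were tested by edgeR 4.0.16 (R 4.3.3, quasi-likelihood, robust, genotype as the only term). Adjustment was by Benjamini-Hochberg over 11909 genes with a threshold of 0.05. In counts simulated for this comparison over 11909 genes, 189 of 200 genes changed 4-fold were recovered, with 11 false calls. The changed genes were drawn from those with a log2 CPM of at least 1, and the simulated libraries were not paired by number. Recovery of lower genes or under pairing was not tested. Alternatives were limma 3.58.1 (voom), DESeq2 1.42.0, other scaling, filters and prior counts, a replicate block, and leaving out each library. Positions came from GENCODE M21, matched for 99.9% of rows.

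Across genes, deviations of same-numbered libraries from their genotype mean correlated at 0.681, 0.722, 0.633 and 0.687 (Pearson r; genes are not independent). The highest r with another number was 0.042, 0.303, 0.503 and 0.582 for control 1 to 4. The numbers were therefore read as pairs, but the main test has no term for them, and the paired fit (replicate block) is given beside it where it changes a call. That pairing comes from the counts, not from the labels. The lowest chi-square per degree of freedom between libraries of a genotype was 18.15, so these libraries differed by more than counting error. Each was counted as 1 sample, but this does not show separate embryos, lines or clones. The members and lists were chosen with earlier results of these data known. Named were all members, up to 4 called genes per list by lowest p (or the 2 with the highest level), the 5 genes most like Unc93b1 and Cd14 (mean log2 CPM of at least 1), the nearest tested neighbours of Unc93b1, and Pus10. Any other gene, markers included, was named after its values were seen.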

Additional observations from a re-analysis of the deposited data

How the results depend on the processing

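With the replicate block 2273 genes rose and 2368 fell, or 39.0% of all genes tested in either direction. Of the 90 tested pathway list members 30 rose and 14 fell, and 4 of the 10 genes beside Unc93b1 passed. By DESeq2, 1146 of all genes were higher and 1287 lower, with 17 pathway list members rising and 10 falling. With 1 library left out, the genes that fell numbered 520 (without PUS10KO 3) to 728, with 560 without PUS10KO 2, and 1 to 2 neighbours of Unc93b1 passed. The alternatives for the neighbours were chosen after seeing the data. The log2 fold change of Unc93b1 was -6.31 with a prior count of 2. Fitting the authors' normalized values under the replicate block gave -2.63 for Unc93b1 and 1.24 for Cd14. In the 8 fits that left out 1 library, Unc93b1 had log2 fold changes of -7.36 to -6.95 and Cd14 of 1.85 to 2.19. Tlr2 ran from 1.00 to 1.68 in those fits and passed in none of them. It passed with the replicate block and with DESeq2. The members were chosen with this contrast known, so nothing is read from which fits they passed. Depth limits Unc93b1 in PUS10KO, with 1 to 3 counts per library.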
